A study of Mus musculus with 2 samples.

Results

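The 30 genes described here act at successive steps of the cell division cycle. They were chosen by symbol from the 31053 genes listed in the files, and all 30 were present. By role they were 3 genes of the G1 phase (Ccnd1, Ccnd2, Cdk4), 9 of DNA replication in S phase (Pcna, Mcm2 to Mcm7, Tyms, Rrm2), 14 of mitosis (Mki67, Top2a, Ccna2, Ccnb1, Ccnb2, Cdk1, Birc5, Ube2c, Cenpf, Cenpa, Pbk, Cks2, Spc25, Lockd) and 4 chromatin and tubulin genes that cells also use outside division (Stmn1, Tubb5, Hmgb2, H2afz). Islets of C57BL/6J mice, 13 weeks old, had been dispersed and profiled by droplet single-cell RNA sequencing to find α, β and δ cell subpopulations in a prediabetes model. There was 1 library labelled CD, a name that the labels do not expand, and 1 labelled HFD, for high-fat diet. The islets had been released with collagenase and picked by hand. The sources used here do not say how many mice gave cells to either library, or for how long they were fed.

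A cell leaves G1 when D-type cyclins activate Cdk4 and its relative Cdk6, which phosphorylate the retinoblastoma protein and release E2F transcription factors. These switch on the genes that copy DNA, and a later wave of transcription in G2 switches on the genes that condense, align and separate chromosomes. Adult β cells divide rarely, and in the mouse Ccnd2 and Cdk4 are known to be needed for the postnatal growth of the β cell mass.

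The CD library held 265836346 unique molecular identifiers (UMIs, each marking 1 captured RNA molecule) and the HFD library 271527648. Barcodes with at least 1500 UMIs, at least 500 genes and at most 15% of UMIs on mitochondrial genes were kept as cells, which left 9667 CD and 12062 HFD cells. The libraries shared 26 cell barcodes. The limit on mitochondrial UMIs removed 408 barcodes in CD and 1165 in HFD, and the median mitochondrial share of β cells was 2.70% in CD and 3.78% in HFD. Classes were set by the share of a cell's UMIs on its hormone gene or, for the 3 classes without a hormone, by at least 4 of 8 marker genes. There were 6515 CD and 7433 HFD β cells (median UMIs 26671 and 24050), 1272 and 2005 α cells (9441 and 7668), 570 and 662 δ cells (6442 and 4781), and 328 and 535 PP cells (15780 and 10985). There were also 345 and 544 endothelial cells (4444 and 4426), 140 and 194 macrophages (4755 and 4210), and 50 and 117 mesenchymal cells (2686 and 2533). With 1 library for each diet no difference has a replicate check, no test between diets was made, and all intervals are 95% intervals that cover counting error alone. Differences describe these libraries, and diet, mouse and preparation cannot be told apart.

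The G1 genes were seen in every class, and for Ccnd2 the class with the highest level depended on how levels were scaled. Levels are given as CPM (counts per 1000000 UMIs of a class) after leaving out mitochondrial genes and the 5 hormone genes Ins1, Ins2, Gcg, Sst and Ppy, because these took 64.4% of all β cell UMIs in CD but 6.24% of endothelial UMIs. Ccnd2, a D-type cyclin, stood at 902 in CD and 1320 in HFD β cells, at 832 and 1157 in α cells, at 651 and 969 in δ cells and at 520 and 725 in PP cells. It was lower in mesenchymal cells (254 and 463), endothelial cells (242 and 393) and macrophages (59.7 and 141). The order of the 7 classes was the same in both libraries, though the counting intervals of the mesenchymal and endothelial levels overlapped. On plain CPM, hormone genes included, α and δ cells stood above β cells for Ccnd2. Ccnd1, the D-type cyclin first known from growth factor responses, stood at 144 and 183 in β cells, 130 and 137 in α cells, 194 and 218 in δ cells, 141 and 356 in endothelial cells and 67.8 and 359 in mesenchymal cells. Its highest level in CD was thus in δ cells, and in HFD the endothelial and mesenchymal levels were above those of the 4 hormone classes. Cdk4, the kinase that D-type cyclins activate, stood at 131 and 99.5 in β cells, 108 and 74.5 in α cells, 126 and 93.2 in δ cells and 83.2 and 69.8 in endothelial cells. Its mesenchymal levels of 161 and 100.9 were the highest but came from 19 and 27 UMIs.

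**Figure D1:**
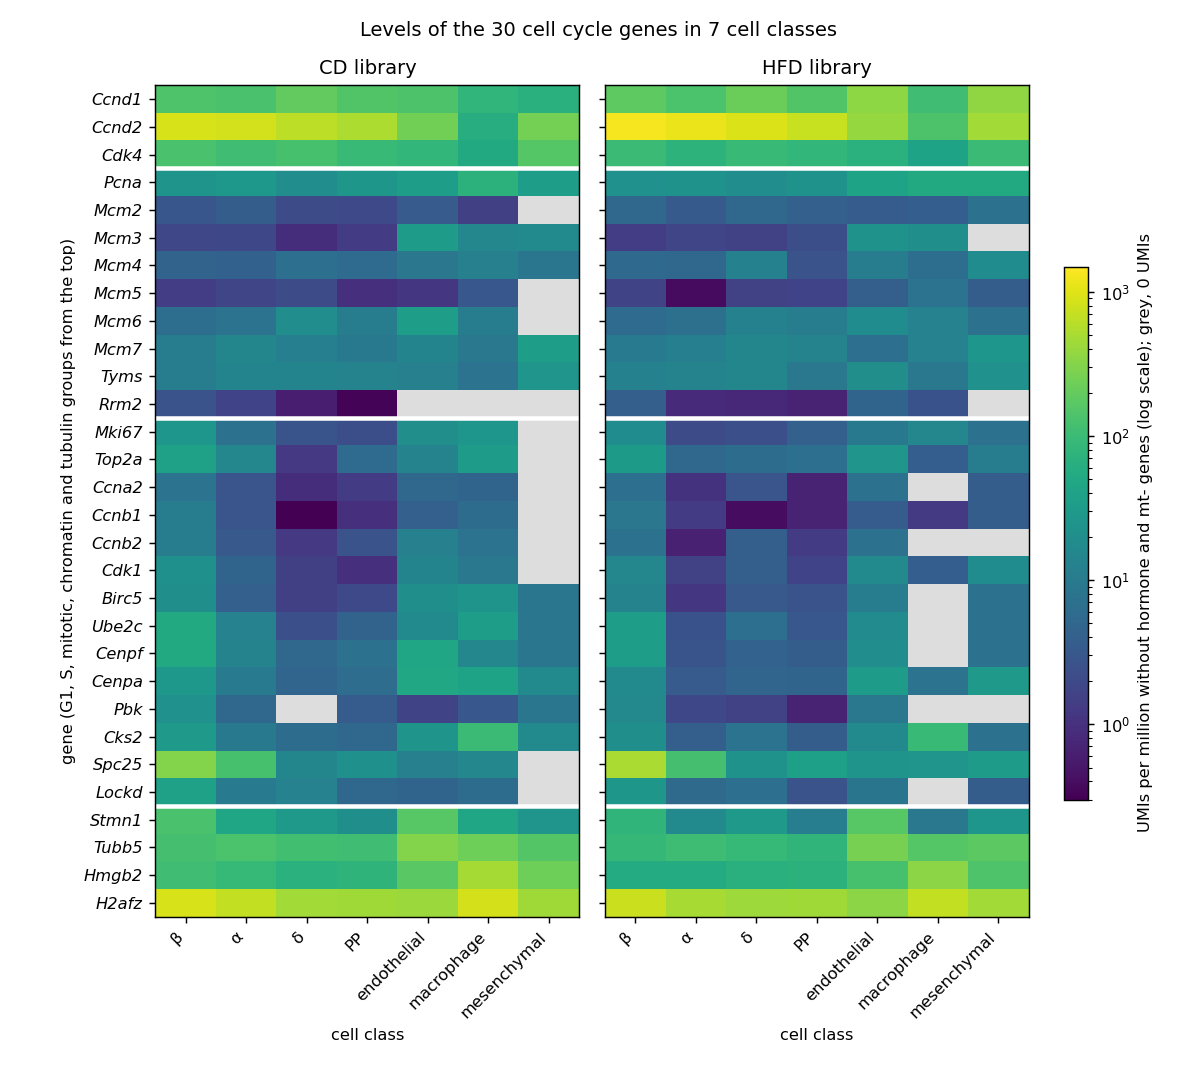
Level of each of the 30 genes (rows, by phase group) in 7 cell classes (columns) of the CD and HFD libraries, in CPM without hormone and mitochondrial genes, on a log colour scale with 0 UMIs in grey. Ccnd2 is bright in the hormone classes (902 in CD and 1320 in HFD β cells), Spc25 is brightest in β cells (313 and 509), and the CD mesenchymal column, from 50 cells, holds the most grey.

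S phase genes as a group varied little between the hormone classes. Summed over the 9 genes, the level was 66.3 in CD and 68.2 in HFD β cells, 78.0 and 66.7 in α cells, 78.0 and 83.6 in δ cells and 71.8 and 68.4 in PP cells. Endothelial cells (142 and 134), macrophages (130 and 129) and mesenchymal cells (119 and 138) stood higher. Mcm3, a subunit of the helicase that opens DNA for copying, was at 32.6 and 23.5 in endothelial cells against 1.86 and 1.40 in β cells.

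Mitotic genes separated the classes more widely. Without Spc25, which is described further on, the other 13 genes summed to 364 in CD and 254 in HFD β cells, 312 and 125 in macrophages, and 233 and 186 in endothelial cells. They summed to 101.5 and 33.3 in α cells, 41.1 and 54.8 in δ cells, 48.0 and 36.2 in PP cells and 67.8 and 108 in mesenchymal cells. Of the macrophage UMIs of these 13 genes, 65 of 204 in CD and 72 of 97 in HFD were of Cks2. Outside the β cells most of the sums rested on few cells. The single richest cell held 1.16% of the mitotic UMIs in CD and 1.43% in HFD β cells, 14% and 18.2% in α cells, 39.0% and 18.6% in endothelial cells, and 44.6% and 6.19% in macrophages. In δ cells it held 29.6% and 56.9%, in PP cells 57.1% and 53.7%, and in mesenchymal cells, with 8 and 29 such UMIs in all, 25.0% and 72.4%.

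Free RNA from lysed cells enters every droplet, so levels were set beside those in barcodes with 10 to 100 UMIs. Its estimated share of a class's RNA was 13.5% in CD and 17.8% in HFD β cells, 5.56% and 7.24% in α cells and 9.47% and 11.6% in δ cells. All 14 mitotic genes in β cells stood at over 3 times what that share would bring in both libraries. In α cells 14 did so in CD and 11 in HFD, and in δ cells 6 and 10. In HFD macrophages the median mitotic gene was at 0.644 times the free RNA amount, and 4 of the 14 stood at over 3 times it. Among these were Cks2 (93.1 times), Mki67 (24.4 times) and Cenpa (12.2 times). Mitotic genes of HFD macrophages under 3 times the free RNA amount are not read as expression.

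The mitotic genes sat together in a small set of β cells. A cell was called mitotic when it had a UMI of at least 3 of the 14 mitotic genes, after every β cell had been thinned at random to 10000 UMIs so that depth was equal, which left out 748 CD and 572 HFD cells. The word mitotic is a label for this rule. Such genes are switched on by G2, so cells not yet in mitosis can pass it. Of the cells that remained in CD, 257 of 5767 were mitotic (4.46%, 3.94 to 5.02). In HFD 221 of 6861 were (3.22%, 2.82 to 3.67). The HFD share was the lower, with a difference of -1.24 percentage points (-1.93 to -0.55). Without Spc25 the shares were 4.23% and 2.74%, a difference of -1.49 points (-2.16 to -0.84). At the same depth a UMI of at least 3 of the 9 S phase genes was found in 29 CD cells (0.503%) and 43 HFD cells (0.627%). That difference of 0.124 points (-0.155 to 0.397) was not detectable at this depth.

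**Figure D2:**
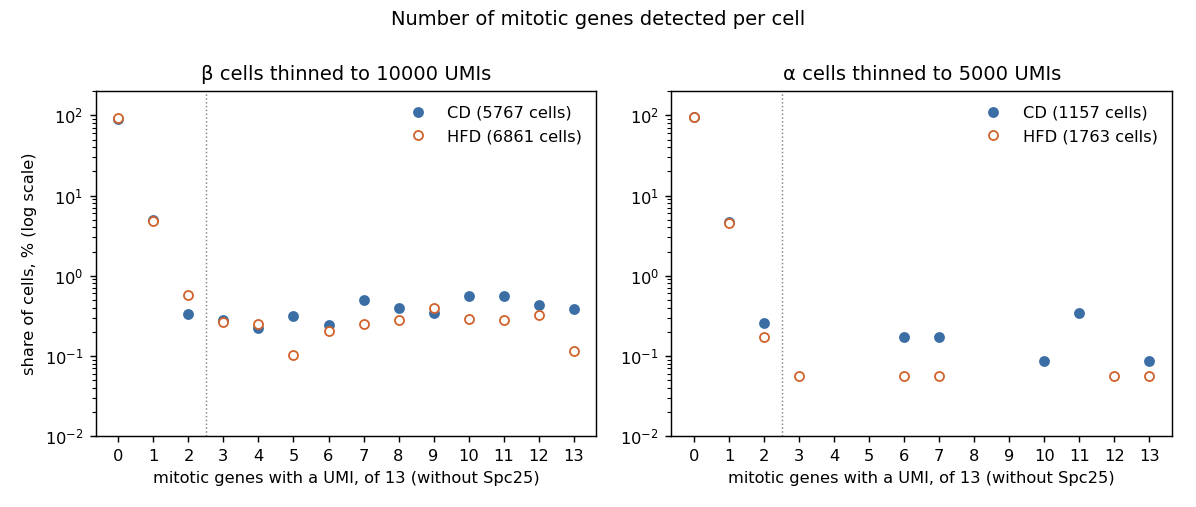
Share of cells (log scale) by how many of 13 mitotic genes, without Spc25, had a UMI in β cells thinned to 10000 UMIs (5767 CD and 6861 HFD cells) and α cells thinned to 5000 UMIs (1157 and 1763 cells), with bins of no cell left blank and the dotted line at the limit of 3 genes. β cells fall into a large group with 0 or 1 gene and a long flat tail reaching all 13 genes, and most CD points of the tail lie above the HFD points.

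The number of mitotic genes per cell had a long tail rather than a fall-off at 3. Of the mitotic β cells, 194 in CD and 143 in HFD had a UMI of at least 7 of the 14 genes, and 22 and 8 had all 14. Of the mitotic cells 10.1% in CD and 16.7% in HFD also had at least 3 S phase genes, against 0.0544% and 0.0904% of the other β cells. In turn, 26 of the 29 CD and 37 of the 43 HFD β cells with at least 3 S phase genes were called mitotic. The mitotic set thus holds most cells picked by the S phase genes and is not limited to cells in mitosis. Before thinning, mitotic β cells held a median of 44902 UMIs in CD and 35939 in HFD, and the other β cells 27837 and 24810. Insulin RNA took a median of 57.8% and 60.9% of their UMIs, against 62.2% and 63.4% in the others. At least 4 markers of endothelial, macrophage or mesenchymal cells were found in 1 mitotic β cell in CD and 8 in HFD. After likely doublets were removed, both mitotic shares were within their counting error of those above.

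For the 13 mitotic genes other than Spc25, between 84.7% and 97.8% of all β cell UMIs in CD (median 95.5%) lay in mitotic cells, which made up a median of 4.40% of the cells. In HFD the range was 77.0% to 97.7% (median 92.7%) in 3.16% of the cells. For each gene the mitotic cells were found with the other genes alone, so that the gene did not choose its own cells. Top2a, which untangles DNA before chromosomes part, had 717 UMIs in such cells and 18 in all other β cells in CD. Stmn1, which destabilises microtubules, was placed by its role among the genes used outside division, yet 93.1% of its UMIs in CD and 88.5% in HFD lay in mitotic cells. For Hmgb2, a protein that bends DNA, the shares were 63.3% and 50.6%, for the tubulin gene Tubb5 44.7% and 29.96%, and for the histone variant gene H2afz 26.6% and 16.3%. S phase genes ranged from 9.70% to 79.3% in CD and from 11.6% to 46.4% in HFD. The helicase genes Mcm5 (79.3% and 46.4%) and Mcm3 (70.6% and 45.5%) and the ribonucleotide reductase gene Rrm2 (50.0% and 43.2%), which supplies DNA building blocks, were the 3 S phase genes highest in both. The G1 cyclins went the other way. Ccnd2 was 0.782 times as high in mitotic as in other β cells in CD and 0.762 times in HFD, and Ccnd1 0.715 and 0.83 times, whereas Cdk4 was 1.65 and 1.59 times as high.

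**Figure D3:**
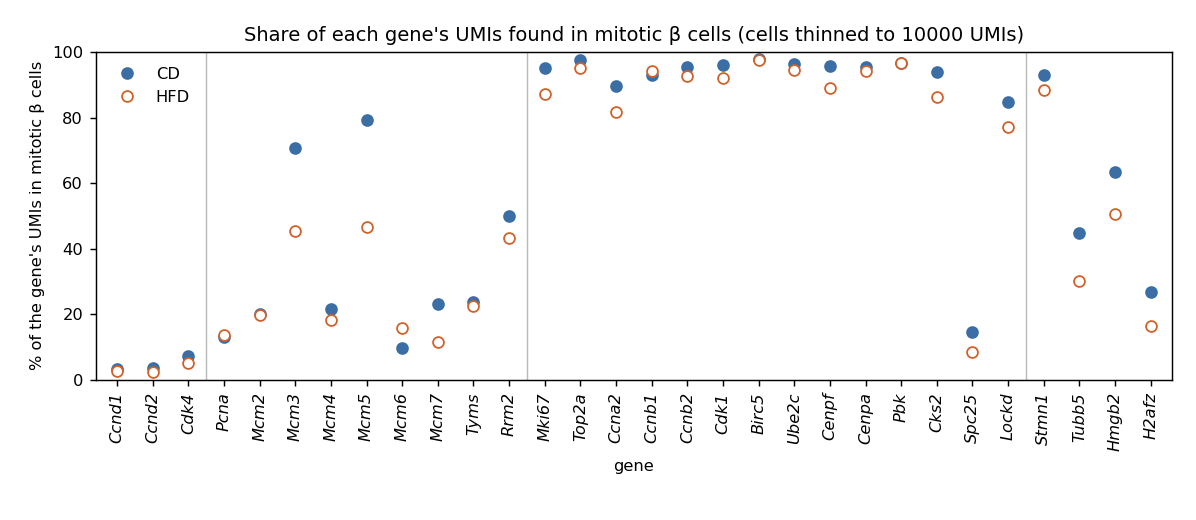
Percent of each gene's UMIs that lay in mitotic β cells, for the 30 genes in phase order (vertical axis, 0 to 100%), in the CD (filled) and HFD (open) libraries at 10000 UMIs per cell. The mitotic genes and Stmn1 lie near the top (median mitotic gene 95.5% and 92.7%), Spc25 lies near the bottom with 14.5% and 8.34%, and the G1 genes are at 7.14% or below.

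Promoter sequences showed motifs that many, but not all, of the mitotic genes share. RefSeq promoters of GRCm38.p6 were found for 23 of the 30 genes, and the 250 bases before the start were searched on both strands for the cell cycle homology region of mitotic genes (CHR, TTTGAA or TTCGAA), the CCAAT box that NF-Y binds, and 4 spellings of the E2F site (TTTCCCGC, TTTGGCGC, TTTCGCGC, TTTGCCGC). At least 2 CCAAT boxes were present in 10 of 12 mitotic promoters, 4 of 8 S phase promoters and 10.1% of all 32851 promoters of the same length. A CHR was present in 6 of 12 mitotic promoters, 2 of 8 S phase promoters and 17.1% of all. An E2F site was present in 1 of 12 mitotic promoters, 3 of 8 S phase promoters and 1.86% of all. These matches describe letters alone. TTCGAA reads the same on both strands and was counted once, and E2F spellings on opposite strands can overlap, as in Mcm5 and Mcm6. Some promoters departed from the contrast between mitotic and S phase genes. Birc5 had no motif match, Cdk1 had an E2F site beside 2 CHR matches, and Mcm2 and Mcm7 each had a CHR. The 6 sequences that follow are examples and do not stand for all 23 genes. Each gives the 160 bases just before the start on the gene's strand, 5′ to 3′, with motif letters in capitals.
Mki67 (mitotic, chr7:135716380-135716539, minus strand): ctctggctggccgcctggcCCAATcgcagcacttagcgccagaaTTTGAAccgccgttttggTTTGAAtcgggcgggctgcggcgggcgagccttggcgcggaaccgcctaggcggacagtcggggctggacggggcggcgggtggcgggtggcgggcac
Top2a (mitotic, chr11:99024190-99024349, minus strand): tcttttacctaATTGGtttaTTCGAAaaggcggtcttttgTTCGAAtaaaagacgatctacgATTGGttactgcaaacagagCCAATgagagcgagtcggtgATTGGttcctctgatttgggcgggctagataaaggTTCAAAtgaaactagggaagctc
Spc25 (mitotic list, chr2:69206214-69206373, minus strand): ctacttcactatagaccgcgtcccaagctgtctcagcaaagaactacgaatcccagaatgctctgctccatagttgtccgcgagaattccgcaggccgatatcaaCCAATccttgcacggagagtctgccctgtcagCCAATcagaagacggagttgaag
Mcm5 (S phase, chr8:75109349-75109508, plus strand): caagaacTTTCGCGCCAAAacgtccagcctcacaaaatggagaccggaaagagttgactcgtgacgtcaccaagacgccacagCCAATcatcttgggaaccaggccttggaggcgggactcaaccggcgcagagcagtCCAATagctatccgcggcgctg
Mcm6 (S phase, chr1:128359706-128359865, minus strand): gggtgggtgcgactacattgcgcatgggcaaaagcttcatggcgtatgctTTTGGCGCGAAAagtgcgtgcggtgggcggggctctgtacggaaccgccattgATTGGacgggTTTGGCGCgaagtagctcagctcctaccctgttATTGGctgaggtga
Hmgb2 (chromatin, chr8:57511683-57511842, plus strand): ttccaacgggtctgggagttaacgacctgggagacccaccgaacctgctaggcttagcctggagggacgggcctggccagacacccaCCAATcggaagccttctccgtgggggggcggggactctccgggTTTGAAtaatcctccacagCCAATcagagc
Top2a had 4 CHR and 6 CCAAT matches in the 250 bases and Mki67 2 and 3, with no E2F match in either. Mcm5 had 2 CCAAT and 2 E2F matches and Mcm6 2 and 3, with no CHR in either. Spc25 had 2 CCAAT boxes and no CHR or E2F match. Hmgb2 had 2 CHR and 4 CCAAT matches and no E2F match.

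Spc25 encodes a subunit of the Ndc80 complex, which ties chromosomes to spindle microtubules, but its RNA was not limited to mitotic cells. Mitotic cells held 14.5% of its β cell UMIs in CD and 8.34% in HFD, and 59.1% and 69.8% of the other β cells had a Spc25 UMI at 10000 UMIs per cell. It was still 3.83 and 3.23 times as high in mitotic as in other β cells. At 3000 UMIs per cell in every class, a Spc25 UMI was found in 26.7% of CD and 35.8% of HFD β cells and 18.7% and 20.2% of α cells. The shares were 2.56% and 5.87% in δ cells, 4.0% and 4.74% in PP cells and 1.19% and 4.55% in endothelial cells. The Spc25 level was 9.27 times in CD and 6.91 times in HFD what free RNA would bring in β cells and 16.3 and 8.08 times in α cells, but 1.38 and 1.09 times in δ cells, 2.18 and 1.63 times in PP cells and 2.05 and 1.497 times in endothelial cells. Spc25 lies at chr2:69193895-69206194 on the minus strand of GRCm38, 4878 bases from G6pc2 (chr2:69211073-69227841, plus strand), a glucose-6-phosphatase gene of β cells. For each G6pc2 UMI there were 0.338 Spc25 UMIs in CD and 0.298 in HFD β cells, 0.441 and 0.387 in δ cells and 0.398 and 0.382 in free RNA. In α cells, which had few G6pc2 UMIs (239 and 597), there were 4.40 and 2.15. The Spc25 of δ cells thus stood to G6pc2 about as in free RNA, and that of α cells did not.

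Between diets, β cells were compared by the ratio of summed CPM after scaling by the trimmed mean of M-values (TMM). A gene was counted as lower or higher at 1.5-fold or more, with at least 20 UMIs in both libraries together. Among the 30 genes 8 were lower and 2 higher in HFD, against 7.01% lower and 10.7% higher of the 15284 genes so measured. The median log2 ratio was -0.44 for the 30 genes and -0.0038 for all genes. Markers of other cell types in β cells summed, in plain CPM, to 13.5 in CD and 33.3 in HFD for endothelial cells, 33.7 and 52.7 for macrophages and 2.39 and 7.11 for mesenchymal cells (8 genes each). They summed to 291 and 234 for ductal, 23.6 and 6.75 for acinar, 0.148 and 0.251 for lymphocyte and 7.70 and 8.21 for Schwann cell markers, and their part in the differences was not tested.

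Of the G1 genes in β cells, Ccnd2 had 65252 UMIs in CD and 87053 in HFD, or 317 and 443 CPM, a log2 ratio of 0.49 (0.47 to 0.50). Ccnd1 had 10426 and 12058 UMIs, or 50.6 and 61.4 CPM, a log2 ratio of 0.28 (0.24 to 0.32). Cdk4 had 9475 and 6562 UMIs, or 46.0 and 33.4 CPM, a log2 ratio of -0.46 (-0.51 to -0.41). The 2 cyclins were higher and their kinase lower in HFD, and none reached 1.5-fold.

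S phase genes were split, with 4 below and 5 above a ratio of 1 and a median log2 ratio of 0.16. Mcm2, a helicase subunit with 212 CD and 356 HFD UMIs (1.03 and 1.81 CPM), was counted as higher with a log2 ratio of 0.82 (0.57 to 1.07). Rrm2 stood at 0.47 (0.20 to 0.75) and Tyms, which makes thymidylate, at 0.16 (0.01 to 0.30). Pcna, the clamp that holds DNA polymerase, stood at -0.22 (-0.32 to -0.12), Mcm6 at -0.21, Mcm7 at -0.22 and Mcm3 at -0.48 (-0.88 to -0.09). Mcm4 (0.19) and Mcm5 (0.24) had intervals that include 0, and both stood below 0 when cells were thinned (-0.022 and -0.25). With thinned cells Rrm2 (0.45), Tyms (0.23) and Mcm6 (-0.35) kept their directions, but their intervals then included 0. The subunits of the 1 helicase therefore did not share a direction.

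Mitotic genes other than Spc25 were all 13 below 0 in HFD β cells, with a median log2 ratio of -0.57, a range from -0.81 to -0.26 and every interval below 0. Cenpa, the histone that marks centromeres, had 2052 UMIs in CD and 1116 in HFD (9.96 and 5.68 CPM), a log2 ratio of -0.81 (-0.92 to -0.70). Ccnb2, a cyclin that drives entry into mitosis, had 809 and 480 UMIs and a log2 ratio of -0.68 (-0.85 to -0.52). Both were among 6 mitotic genes counted as lower. The others were Cenpf (-0.67), a kinetochore protein gene with 3849 and 2305 UMIs, Birc5 (-0.67), of the chromosomal passenger complex, Ube2c (-0.67), the ubiquitin-conjugating enzyme that helps end mitosis, and Cks2 (-0.61), which binds mitotic kinases. The mitotic kinase gene Cdk1 (-0.52), its partner cyclin genes Ccnb1 (-0.41) and Ccna2 (-0.26), the kinase gene Pbk (-0.47), Mki67 (-0.54), whose protein coats mitotic chromosomes, Top2a (-0.41) and the long non-coding RNA Lockd (-0.57) were below 0 without reaching 1.5-fold. Spc25 had 22664 and 33585 UMIs, or 110.0 and 171 CPM, and was counted as higher with a log2 ratio of 0.64 (0.61 to 0.66). Its neighbour G6pc2 went from 326 to 574 CPM, a log2 ratio of 0.82. When cells were thinned to equal depth, 15 of the 30 genes in place of 8 were at least 1.5-fold lower in HFD β cells, against 6.66% of all genes in that setting.

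**Figure D4:**
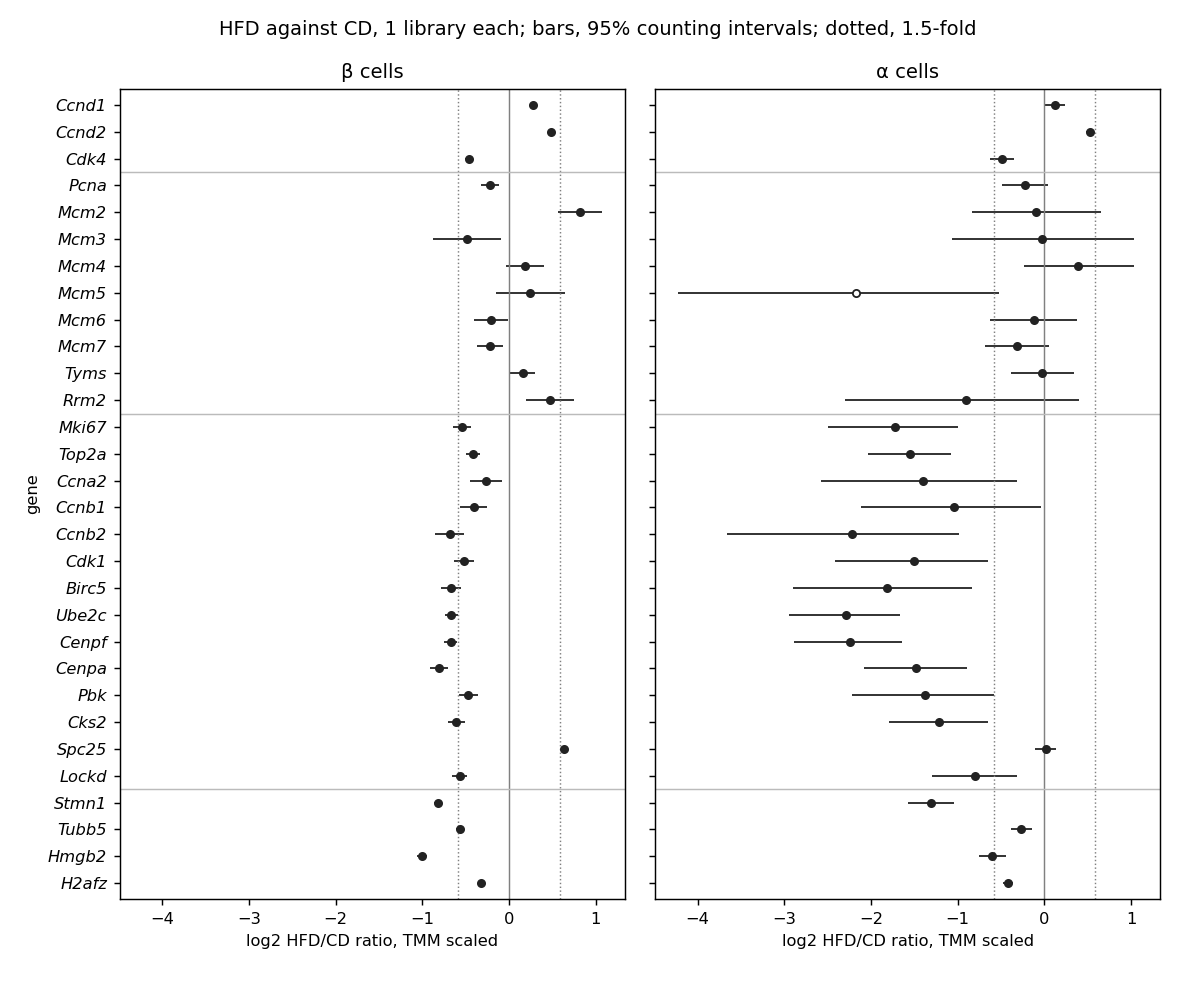
Log2 ratio of HFD to CD (horizontal axis, TMM-scaled) for the 30 genes by phase group in β and α cells, with bars for 95% counting intervals, dotted lines at 1.5-fold and an open circle for a gene under 20 UMIs. In β cells the 13 mitotic genes other than Spc25 lie between -0.81 and -0.26 and in α cells between -2.28 and -0.80, while Ccnd2 lies to the right of 0 in both (0.49 and 0.52).

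Chromatin and tubulin genes were all 4 below 0 in HFD β cells. Hmgb2 had 7910 UMIs in CD and 3765 in HFD, or 38.4 and 19.2 CPM, a log2 ratio of -1.001 (-1.06 to -0.95). Stmn1 had 9520 and 5140 UMIs, or 46.2 and 26.2 CPM, a log2 ratio of -0.82 (-0.87 to -0.77). Tubb5 (-0.57) and H2afz (-0.32) did not reach 1.5-fold.

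A lower class sum can come from fewer mitotic cells or from fewer UMIs in each, so both were measured. At 10000 UMIs per cell, mitotic β cells were 4.46% in CD and 3.22% in HFD, and within them 13 of 13 mitotic genes without Spc25 had fewer UMIs per cell in HFD, with a median log2 ratio of -0.37 and 11 intervals below 0. Mki67 had 1.87 UMIs per mitotic cell in CD and 1.30 in HFD (-0.53), Cenpf 3.80 and 2.69 (-0.50) and Ube2c 3.60 and 2.79 (-0.37). These cells were chosen by the mitotic genes, Spc25 among them, so the values describe the cells past the limit of 3 genes. When Spc25 was left out of the choice, which gave 244 CD and 188 HFD mitotic cells, 12 of the 13 genes were below 0, with a median of -0.23 and 8 intervals below 0. Mki67 then stood at -0.40, Cenpf at -0.39 and Ube2c at -0.23, and Ccna2 at 0.0078 with an interval that includes 0. Hmgb2 had 5.31 and 2.65 UMIs per mitotic cell (-1.004) and Stmn1 8.34 and 5.53 (-0.59). Ccnd2 with 2.53 and 3.29 (0.38) and Spc25 with 3.78 and 5.02 (0.41) were higher in HFD inside mitotic cells too.

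In β cells with fewer than 3 mitotic genes the G1 genes and Spc25 had nearly the ratios of all β cells, and the chromatin and tubulin genes were closer to 0. With cells thinned alike, the log2 ratio of Cdk4 was -0.44 in all β cells and -0.43 in those with fewer than 3 mitotic genes. It was 0.28 and 0.27 for Ccnd1, 0.47 and 0.47 for Ccnd2, and 0.63 and 0.70 for Spc25. Hmgb2 went from -1.10 to -0.69 (-0.85 to -0.53), Tubb5 from -0.57 to -0.25, H2afz from -0.28 to -0.11, and Stmn1 from -0.94 to -0.21 with an interval from -0.54 to 0.11. With mitotic cells left out, 2 of the 27 genes still measured were lower and 6 higher at 1.5-fold, against 5.85% lower and 10.2% higher of 13532 genes. The mitotic genes themselves chose the cells left out, so these counts are not read as a result about those genes. The 6 that were higher were Mcm2 (0.73) and Spc25, with intervals above 0, and Mcm5 (1.10), Top2a (0.71), Rrm2 (0.61) and Cenpf, with intervals that include 0. The 2 that were lower were Hmgb2 and Ccnb1, with 23 UMIs in both libraries together (-1.41, -2.94 to -0.053). Cenpf (0.59) and Cks2 (0.46) were above 0 there, from 77 and 78 UMIs, and Lockd (-0.25), Cenpa (-0.22) and Ube2c (-0.064) were below, each of the 5 with an interval that includes 0.

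The rest of the pathway was read from 4 lists of 83 genes that are not among the 30. Of all 15284 genes measured in β cells, 7.01% were lower and 10.7% higher in HFD. List counts near these shares are not read as a result. Of 36 other mitosis genes, 22 were at least 1.5-fold lower and 0 higher in HFD β cells, with a median log2 ratio of -0.63. The 3 with the most UMIs were Pttg1, which holds back the separation of sister chromatids (-0.31), the condensin gene Smc4 (-0.24) and Spc24, the partner of Spc25 in the Ndc80 complex (-0.63). Spc24 and Spc25 thus stood on opposite sides of 0. Of 25 replication genes 1 was lower and 1 higher, with a median of -0.068. Of 15 genes of G1 and entry into S phase 0 were lower and 5 higher, with a median of 0.43. These 5, named after their values were seen, were the E2F genes E2f1 (1.04) and E2f2 (0.83), the cyclin E gene Ccne2 (0.67), Cdk6 (0.82) and Myc (0.81). Of 7 inhibitor genes 0 passed the fold in either direction, with a median of -0.20. Among these Cdkn1b, which encodes the Cdk inhibitor p27, stood at -0.086 and Cdkn1a, which encodes p21, at 0.25. Lockd lies at chr6:134929092-134956798, 3578 bases beyond Cdkn1b on the same strand, and the 2 neighbours had log2 ratios of -0.57 and -0.086.

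In α cells 16 of the 29 genes with enough UMIs were lower and 0 higher in HFD, against 5.44% lower and 8.26% higher of 12525 genes. Ccnd2 had 7029 UMIs in CD and 12191 in HFD, or 535 and 769 CPM, a log2 ratio of 0.52 (0.48 to 0.57). Ccnd1 stood at 0.12 (0.01 to 0.24) and Cdk4 at -0.49 (-0.63 to -0.35). The 3 G1 genes thus had the same directions as in β cells. At 5000 UMIs per cell, however, Ccnd1 stood at 0.074 with an interval that includes 0 (-0.093 to 0.24).

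The 13 mitotic genes other than Spc25 were all at least 1.5-fold lower in HFD α cells, with a median log2 ratio of -1.51 and a range from -2.28 to -0.80. Ube2c had 109 UMIs in CD and 27 in HFD (8.30 and 1.70 CPM), a log2 ratio of -2.28 (-2.95 to -1.67). Cenpf had 114 and 29 UMIs, a log2 ratio of -2.25 (-2.89 to -1.65). Mki67 with 60 and 22 UMIs stood at -1.72 and Top2a with 131 and 54 at -1.55. These sums came from few cells. Before thinning, 84.8% of the UMIs of the 13 genes in CD and 53.3% in HFD lay in 12 and 8 cells. The 13 genes are thus not 13 separate results, and the intervals count each UMI on its own. At 5000 UMIs per cell 10 of 1157 α cells were mitotic in CD (0.864%, 0.415 to 1.58). In HFD 6 of 1763 were (0.340%, 0.125 to 0.739), a difference of -0.524 points (-1.27 to 0.077) whose interval includes 0. At 3000 UMIs per cell the difference was -0.566 points (-1.27 to -0.014), so the choice of depth decided whether the interval included 0. The count of 16 genes lower was 10 of 24 measured with thinned cells, against 5.35% of all genes, 10 of 27 without likely doublets (5.23%) and 8 of 18 with at least 100 UMIs (2.29%). With thinned cells Ccna2 (-1.32), Ccnb1 (-0.77), Ccnb2 (-1.80) and Rrm2 (-1.32) were still past 1.5-fold but had under 20 UMIs. Spc25 had 1052 and 1281 UMIs in α cells (80.1 and 80.9 CPM), a log2 ratio of 0.013 (-0.11 to 0.13) that turned to -0.0098 on total counts and -0.035 without hormone genes.

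The 4 chromatin and tubulin genes of α cells had the β cell directions with smaller counts. Stmn1 had 373 and 182 UMIs (-1.31) and Hmgb2 751 and 598 (-0.60), and Tubb5 (-0.27) and H2afz (-0.42) did not reach 1.5-fold. Of 8 S phase genes with enough UMIs 1 was lower, Rrm2 with 14 and 9 UMIs (-0.91, with an interval that includes 0). The S phase median was -0.11, where β cells had 0.16, and Rrm2 was at 0.47 in β cells. Of the other mitosis genes 18 of 23 measured were lower and 0 higher, with a median of -1.31. Of the replication genes 4 of 20 were lower and 0 higher, of the genes of G1 and entry into S phase 0 of 12 were lower and 2 higher, and of the inhibitor genes 1 of 6 was lower and 0 higher. Of all 12525 genes measured in α cells, 5.44% were lower and 8.26% higher. Counts of 1 or 2 genes in such short lists are not read as a result.

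Across the 7 classes Ccnd2 was higher in HFD in 7 of 7, with 7 intervals above 0, the clearest common difference among the G1 genes. In TMM-scaled CPM it went from 510 to 720 in δ cells (log2 ratio 0.50), from 258 to 345 in PP cells (0.42) and from 223 to 361 in endothelial cells (0.69, 0.53 to 0.86). It went from 54.9 to 128 in macrophages (1.22, from 39 and 109 UMIs) and from 216 to 417 in mesenchymal cells (0.95, from 30 and 124 UMIs). At 3000 UMIs per cell a Ccnd2 UMI was found in 59.1% of CD and 69.6% of HFD β cells, 76.0% and 87.0% of α cells, 76.6% and 87.6% of δ cells and 53.0% and 63.6% of endothelial cells. In macrophages, where the gene was lowest, the shares were 11.5% and 27.4%. Cdk4 was lower in HFD in 7 of 7 classes, with intervals below 0 in β, α and δ cells (-0.51 in δ cells). The 7 classes come from the same CD and HFD libraries and are not replicates of each other. How many of all genes keep the same direction in every class was not measured, so these counts have no share to stand beside. Free RNA shares were higher in HFD in all 7 classes, from 6.83% to 13.1% in macrophages, and its part in these differences was not tested.

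Ccnd1 differed most in the classes without a hormone. In endothelial cells it had 242 UMIs in CD and 907 in HFD, or 130 and 326 CPM, a log2 ratio of 1.33 (1.12 to 1.54). At 3000 UMIs, 24.9% and 57.0% of cells had a Ccnd1 UMI. In mesenchymal cells it had 8 and 96 UMIs, a log2 ratio of 2.49 (1.45 to 3.74), which was 1.95 when 3 markers were asked of a cell and 3.68 when 5 were. In δ cells it stood at 0.095, in PP cells at -0.042 and in macrophages at 0.44, each with an interval that includes 0. The endothelial and mesenchymal values were thus above 1.5-fold and those of the 4 hormone classes and macrophages were not.

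**Figure D5:**
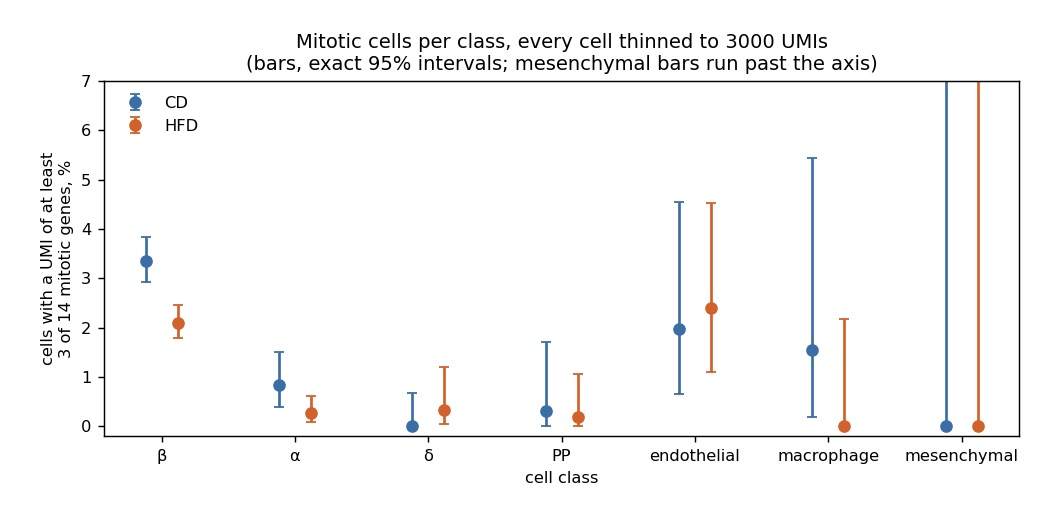
Percent of cells with a UMI of at least 3 of 14 mitotic genes after every cell was thinned to 3000 UMIs, for 7 classes in CD and HFD, with exact 95% intervals. β cells (3.35% and 2.10%) and α cells (0.826% and 0.2601%) have lower HFD points, endothelial points (1.98% and 2.41%) have wide overlapping bars, and the mesenchymal bars, from 13 and 34 cells, run past the axis.

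At 3000 UMIs per cell in every class, mitotic cells were 3.35% of β cells in CD and 2.10% in HFD, and 0.826% and 0.2601% of α cells. In endothelial cells they were 5 of 253 (1.98%) and 9 of 374 (2.41%), a difference of 0.430 points (-2.46 to 2.93). In δ cells they were 0 of 547, with an exact interval up to 0.672%, and 2 of 596 (0.336%). In PP cells they were 1 of 325 and 1 of 527. In macrophages they were 2 of 130 and 0 of 168, with an exact interval up to 2.17%, and in mesenchymal cells 0 of 13 and 0 of 34. Without thinning, β cells held 90.4% of the 385 mitotic cells in CD and 91.0% of the 333 in HFD. Most mitotic cells by this measure were therefore β cells, the largest class, and differences in δ, PP, endothelial and mesenchymal cells and macrophages were not detectable at this depth.

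Endothelial cells had mitotic genes on both sides of 0. Of their 26 genes with enough UMIs 7 were lower and 7 higher in HFD, against 6.12% lower and 10.3% higher of 9929 genes. Cenpf with 78 and 50 UMIs stood at -1.22 (-1.76 to -0.69), Cenpa with 84 and 82 at -0.61 (-1.07 to -0.15), Cks2 at -0.51 with an interval that includes 0, and Top2a with 23 and 64 at 0.90 (0.19 to 1.66). Of the endothelial mitotic UMIs without Spc25, 81.0% in CD and 77.4% in HFD lay in 5 and 10 cells. The richest cell held 39.0% and 18.6%. These intervals count each UMI on its own and do not cover differences between cells. The S phase gene Mcm6 was lower (-0.87, -1.46 to -0.30). At matched depth Mcm6 stood at -0.58 with an interval that includes 0 (-1.56 to 0.40). Mcm3 (-0.48, and 0.28 at matched depth) and Pcna (0.25) had intervals that include 0. Of the other mitosis genes 6 of 17 measured were lower and 2 higher, with a median log2 ratio of -0.14.

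In macrophages Hmgb2 and H2afz were abundant and below 0 in HFD. Hmgb2 went from 444 to 310.0 CPM (-0.52, -0.76 to -0.28) and H2afz from 806 to 621 (-0.38, -0.55 to -0.20). At 3000 UMIs per cell Hmgb2 stood at -0.15 (-0.47 to 0.16) and H2afz at -0.35 (-0.58 to -0.13). Of 15 genes with enough UMIs 5 were lower and 2 higher, against 11.6% lower and 13.3% higher of 5903 genes. Cks2 with 65 and 72 UMIs stood at -0.12, an interval that includes 0, and a Cks2 UMI was found in 23.9% of CD and 23.8% of HFD macrophages at 3000 UMIs. Cenpa had 27 and 6 UMIs (-2.43) and Mki67 17 and 12. Cks2 was thus present where the mitotic cell count was 2 and 0.

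In δ cells 2 of 19 genes were lower and 3 higher, against 6.92% and 8.55% of 11293 genes. Of the mitotic genes with the most UMIs, Lockd (43 and 17) was lower at -1.02 (-1.93 to -0.18), and Spc25 (49 and 58), Cks2 (20 and 19), Cenpf (17 and 11) and Cenpa (16 and 12) had intervals that include 0. In PP cells 6 of 19 were lower and 1 higher, against 6.19% and 7.69% of 10752 genes. The gene higher there was Spc25, with 66 and 110 UMIs (0.71, 0.26 to 1.18), at under 3 times its free RNA level in both libraries. In mesenchymal cells 2 of 6 were lower and 2 higher, against 12.0% and 22.9% of 3441 genes. Over the classes with enough UMIs, Hmgb2 was lower in HFD in 7 of 7 (4 intervals below 0), Cenpa lower in 6 of 6 (4 intervals) and Spc25 higher in 6 of 6 (3 intervals), where the α value changed sign with the scaling and the values outside β and α cells were taken near the free RNA level. At matched depth Hmgb2 stood at 0.072 in PP cells (54 and 86 UMIs) and Cenpa at 0.90 in δ cells (4 and 8 UMIs), both with intervals that include 0. Here too the classes share the same CD and HFD libraries, and the share of all genes with such common directions was not measured.

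By annotation 29 of the 30 genes are protein-coding and Lockd is a long non-coding RNA. A counted gene on the opposite strand overlaps 7 of them (Ccnd1, Ccnd2, Cdk4, Mcm7, Ccna2, Ube2c, Lockd), and the sources used here do not say whether counting used strand, so reads of such pairs cannot be told apart. A copy with at least 90% identity over 300 bases exists for 12 genes, and for Pcna, Tyms, Hmgb2 and H2afz a gene with such a stretch is itself counted in the files. Their values are uncertain to the extent that reads were divided or dropped.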

How the data were processed

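The authors deposited, for each library, a matrix of raw UMI counts per gene and barcode, not normalized. Cell Ranger 6.0.1 and the build mm10 are named in the submitters' processing notes, and version 3.0.2 in the matrices, per the file headers. The annotation release was not stated. Of 31053 gene identifiers 99.6% matched GENCODE M21.

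Cells past more than 1 of the 4 hormone gates (insulin 30%, Gcg 10%, Sst 3%, Ppy 20% of UMIs; 144 CD and 143 HFD cells) were left out. No doublet caller was used in the main results. An alternative removed the highest scrublet scores (scanpy 1.11.5), 748 CD and 1164 HFD cells. Class sums of UMIs in each library were scaled by TMM factors, which were equal to those of edgeR 4.0.16 in R 4.3.3. No test between diets was made. Ratios have exact conditional binomial intervals, shares exact (Clopper-Pearson) intervals and levels Poisson intervals. Where a limit is given for a share of 0, it is the upper end of its exact interval. The free RNA share was the median over 3 foreign hormone genes of class level over empty-barcode level. Thinning drew UMIs without replacement (Python 3.11.15, numpy 2.4.6, scipy 1.17.1). Thinning and ratios were checked on simulated data.

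The genes and lists were chosen with earlier results of these data known. Any of the 30 genes with at least 20 UMIs could be named in β and α cells, and elsewhere the G1 genes and, in each phase group, the 4 with the most UMIs. Other lists name at most 3 genes by UMIs. Alternatives varied depth, thinning, fold, UMI minimum, scaling, doublets, filters and marker limits. Those without Spc25 (the mitotic cells of the per-cell ratios included) or without mitotic β cells were chosen after seeing the data.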

Additional observations from a re-analysis of the deposited data

Results flagged for a closer look

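Before thinning, some mitotic genes had log2 ratios of HFD to CD on opposite sides of 0 in different classes, each with an interval that excludes 0. With 1 library per diet the difference between classes was not tested, and the genes were picked out here after their values were seen. Top2a stood at 0.90 in endothelial cells (23 CD and 64 HFD UMIs), -0.41 in β cells, -1.55 in α cells and -3.14 in macrophages (22 and 3 UMIs). Pbk, a mitotic kinase gene, stood at 2.36 in endothelial cells (3 and 23 UMIs), -0.47 in β cells and -1.38 in α cells. Ube2c stood at 1.40 in δ cells (8 and 17 UMIs), -0.67 in β cells and -2.28 in α cells. At 3000 UMIs per cell the values above 0 had intervals that include 0. In endothelial cells Top2a then stood at 0.89 (-0.345 to 2.27) and Pbk at 0.82 (-1.79 to 4.21). In δ cells Ube2c stood at 1.71 (-0.69 to 5.01). Ube2c in CD δ cells stood at 0.760 times what free RNA would bring, Ube2c in HFD α cells at 1.71 times and Top2a in HFD macrophages at 2.25 times, and the part of free RNA in these ratios was not tested. A single cell held 29.6% of the mitotic UMIs without Spc25 in CD δ cells and 56.9% in HFD δ cells. The richest endothelial cell held 39.0% in CD and 18.6% in HFD, and the richest macrophage 44.6% and 6.19%.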

How the results depend on the processing

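The share of mitotic cells was higher in CD than in HFD in all 10 alternatives in β cells (1.09 to 1.60 times) and in all 10 in α cells (1.68 to 3.53 times). The CD β share was 7.39% with a limit of 2 genes, 3.35% at 3000 UMIs and 5.34% without thinning. The HFD β share was 6.79%, 2.10% and 4.08% in those settings, and 2.74% with a limit of 4 genes or without Spc25. With a limit of 2 genes the α shares were 2.85% and 1.70%. The 8 genes lower in HFD β cells became 15 with thinned cells, 1 at a fold of 2 and 2 without mitotic cells, and the 2 genes higher became 0 at a fold of 2 and 6 without mitotic cells. The 16 lower in α cells became 10 with thinned cells, 10 without likely doublets and 8 with at least 100 UMIs. Without mitotic cells Cenpf (0.59) and Cks2 (0.46), counted as lower before, turned above 0 in β cells, as did Mki67 (0.42), Top2a (0.71), Ccna2 (0.26), Cdk1 (0.33) and Mcm3 (0.041), which had been under 1.5-fold. All of these values had intervals that include 0, and they came from 22 (Mcm3) to 78 (Cks2) UMIs in both libraries together. The cells left out were chosen by the mitotic genes themselves, so no change of direction is read from the values of those genes.

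Leaving hormone and mitochondrial genes out of the total turned the log2 level of β over another class from below to above 0 in CD for Ccnd1 over α (0.15) and endothelial cells (0.034), Ccnd2 over α (0.12) and δ cells (0.47), Cdk4 over α (0.27), δ (0.058) and endothelial cells (0.65) and Pcna over δ cells (0.31). It did so in HFD for Ccnd2 over α (0.19) and δ cells (0.45), Cdk4 over δ (0.095) and endothelial cells (0.51), Pcna over δ cells (0.20) and Hmgb2 over α cells (0.0089). These had differed by 1.5-fold or more on plain CPM. Smaller differences that turned the same way were Hmgb2 over α (0.30) and δ cells (0.66) in CD, Ccnd1 (0.42) and Cdk4 (0.42) over α cells in HFD, and H2afz in both libraries over α (0.38 and 0.59), δ (0.96 and 0.82) and endothelial cells (1.09 and 1.13). The smaller total is the cause by construction, since hormone genes take more of a β cell. No paired analysis was possible because each diet has 1 library. Depth limits the classes other than β cells, in which mitotic genes mostly rest on few cells. Counts from 1 library per diet cannot show what would differ between mice.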
